A study of Mus musculus with 6 samples.

Results

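Claudins and the proteins that work with them seal the space between neighbouring epithelial cells. The set described here is 10 mouse genes: the claudins Cldn1, Cldn2, Cldn3, Cldn4, Cldn7, Cldn8, Cldn15 and Cldn23, the membrane protein gene Ocln and the scaffold gene Tjp1. They were taken by symbol from the platform annotation, using probe sets (groups of short probes that read 1 transcript) with a single gene symbol. This gave 18 probe sets of 45101 on the array. Testing was limited to probe sets that reached a log2 value of 4 on 3 or more of the 6 arrays, which kept 14 of the 18 probe sets and 9 of the 10 genes, out of 19310 probe sets and 10289 genes kept in all.

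RNA came from colon cancer tumours of 3 human IL8 transgenic mice and of 3 wild type control mice. All 6 animals were on a CBA/C57BL/6 background and labelled male. They were kept in specific pathogen-free housing with free access to chow, and total RNA was taken with Trizol and biotin-labelled, 1 sample per array. IL8 is a human chemokine that draws neutrophils and has no direct mouse counterpart. The sources used here do not give the promoter or cell type that drives the transgene, the age of the mice, the origin of the tumours or whether a sample pools tumours or mice. The p-values therefore measure only the spread between these samples.

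A tight junction is a belt of strands at the top of the lateral membrane, in which claudins of adjoining cells meet. Sealing claudins close the strand to ions, whereas pore-forming claudins let small cations and water through, and the scaffold protein ZO-1 ties the strands to actin. In the colon the mixture shifts along the crypt, and inflamed or cancerous mucosa is known for altered claudin expression.

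The arrays differed in ways that bear on these genes. Xist, which is made from the inactive X chromosome, was at 12.27 to 12.89 on the transgenic arrays and at 2.33 to 2.64 on the control arrays, while the Y-linked gene Eif2s3y was at 2.39 to 2.71 on transgenic and 9.99 to 10.22 on control arrays. This goes against the male label of the transgenic mice, and sex and genotype cannot be told apart. Transgenic array 2 carried stratified squamous genes: Krtdap was at 12.31 there and at 2.62 or less elsewhere, and Trp63 at 8.97 against 2.29 or less. Transgenic array 1 had the lowest mean of the goblet cell and colonocyte markers. It held the lowest value for 5 of 7 goblet cell and 4 of 8 colonocyte genes, against 26.9% of all genes. Its mean over 7 of 7 goblet cell markers was 10.32, against 13.21 and 13.26 on the other transgenic arrays and 11.40 to 12.81 on the control arrays. Its mean over 8 of 8 colonocyte markers lay at -1.04 from the control mean, while the other transgenic arrays lay at 0.96 and 1.76 and the control arrays at -0.96 to 1.26. Car1 (9.30, against 9.31 on control array 3) and Guca2a (9.37, against 9.41 on control array 2) were lowest on transgenic array 1 by little. The colonocyte gene Ceacam1 went the other way, with its highest value, 13.21, on transgenic array 1. Krt20 was level on the transgenic arrays at 12.17 to 12.20. The fibroblast marker mean over 8 of 8 genes was also lowest on transgenic array 1, at 9.39, against 10.15 to 10.72 on the other arrays. The general epithelial markers varied less between arrays. They were higher in transgenic tumours for 7 of 8 genes (median difference 0.15 on the log2 scale), against 45.4% of all genes. Their mean over 8 of 8 genes, Epcam, Krt8 and Cdh1 among them, was 13.00 to 13.08 on transgenic and 12.68 to 13.06 on control arrays. In whole tumour RNA, fewer cells of a type and less RNA per cell cannot be told apart.

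None of the 14 tight junction probe sets passed the test between IL8 transgenic and control tumours. With limma and p-values adjusted by Benjamini-Hochberg over every tested probe set, 0 of 14 had an adjusted p under 0.05, against 0.057% of all probe sets (11 of 19310), and 0 of 14 had an unadjusted p under 0.05, against 5.5% of all probe sets. Taking the brightest probe set of each gene, the median difference over the 9 measured genes was 0.33 on the log2 scale, against -0.025 over all 10289 genes. Its size rested largely on 1 tumour: without transgenic array 1 it was 0.10. It was 0.09 when the probe sets of a gene were averaged and 0.18 with each array centred on its epithelial markers. Across the arrays, Cldn2, Cldn3, Cldn4 and Cldn23 were highest in transgenic tumour 1, Cldn8 and Cldn15 were lowest there, and Cldn7 and Tjp1 were nearly level. These patterns were seen in the values and are a description.

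**Figure D1:**
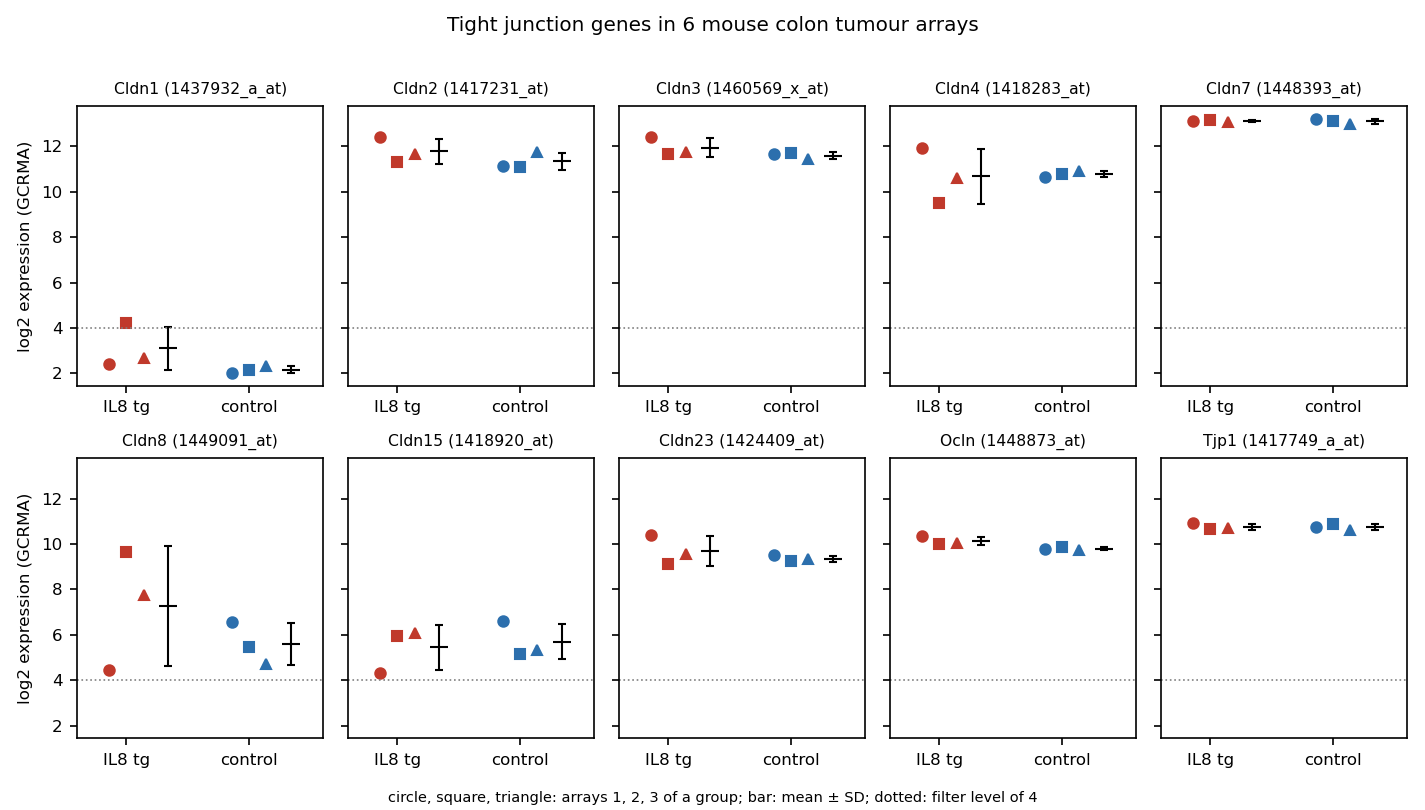
Log2 expression (y axis) of the brightest probe set of each of the 10 genes, with the 3 IL8 transgenic tumours in red on the left of each panel and the 3 control tumours in blue on the right. Circles, squares and triangles are arrays 1, 2 and 3 of a group, black bars the mean and SD, and the dotted line the filter level of 4. Cldn8 spans 4.43 to 9.66, whereas Cldn7 stays between 13.00 and 13.23.

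Cldn2 forms a channel for sodium and water, is found in crypts and is known to be high in inflamed and neoplastic colon. At its brighter probe set it was at 12.40, 11.30 and 11.66 in transgenic tumours 1, 2 and 3 and at 11.16, 11.11 and 11.77 in control tumours 1, 2 and 3. Transgenic tumour 1 was the highest, and the other transgenic values lay within the control range. The difference was 0.44 ± 0.33 (SE), or 1.36-fold, with a 95% interval of -0.37 to 1.25 and a limma adjusted p of 0.81. Without transgenic array 1 it was 0.13.

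A second Cldn2 probe set ran close to the filter level, at 5.82, 3.32 and 4.31 in transgenic and 3.36, 3.56 and 4.42 in control tumours. It too was highest in transgenic tumour 1, and its difference of 0.70 ± 0.65 (SE) did not pass (limma adjusted p 0.829). Without transgenic array 1 that difference was 0.03, and without array 2 it was 1.28. Cldn2 lies on the X chromosome, so that the Xist split between the groups stands beside it as well.

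Cldn15, a cation channel claudin that in mice serves sodium recycling and nutrient uptake in the small intestine, did the opposite in transgenic tumour 1. It was at 4.32, 5.96 and 6.07 in transgenic tumours and at 6.60, 5.17 and 5.32 in control tumours. The lowest value was that of transgenic tumour 1 and the highest that of control tumour 1, with overlap between the groups. The difference of -0.25 ± 0.59 (SE), with an interval of -1.68 to 1.18, did not pass (limma adjusted p 0.934). It was 0.32 without transgenic array 1 and 0.20 without control array 1, so that its direction turned on single tumours. The goblet cell and colonocyte means were also lowest in transgenic tumour 1, the colonocyte mean by little. Their part in the Cldn15 result was not tested.

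Among the sealing claudins, Cldn3 was read by 4 probe sets. Cldn3 is a barrier claudin of most simple epithelia and, like Cldn4, a receptor for the enterotoxin of Clostridium perfringens. Its brightest probe set was at 12.43, 11.67 and 11.74 in transgenic tumours and at 11.66, 11.70 and 11.45 in control tumours. Transgenic tumour 1 stood well clear of the rest there. The other 3 probe sets read 11.34, 11.15 and 10.62 in transgenic tumour 1, against at most 10.45, 10.09 and 9.61 on any other array. All 4 thus put transgenic tumour 1 on top, by 0.82 to 1.31 over the control mean.

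The Cldn3 differences were 0.34 to 0.62 in size, 1.27-fold to 1.54-fold, with limma adjusted p of 0.806 to 0.81. The dimmest of the 4 probe sets was at 10.62, 9.61 and 9.56 in transgenic and 9.26, 9.28 and 9.38 in control tumours, so that its groups did not overlap. Its difference of 0.62 ± 0.30 (SE) had an interval of -0.11 to 1.36, and an exact two-sided permutation test over arrays gave p = 0.1, the smallest that 3 against 3 arrays allow. Without transgenic array 1 the 4 differences were 0.06 to 0.28. The probe sets read 1 transcript and are not separate evidence.

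Cldn4, a sealing claudin of the surface epithelium, had a wide spread in the transgenic group. It was at 11.94, 9.51 and 10.60 in transgenic tumours and at 10.65, 10.78 and 10.90 in control tumours. Both the highest and the lowest value were transgenic, and the control values lay close together between them. The highest array was 5.38-fold above the lowest. Group levels were 10.68 ± 1.22 in transgenic and 10.78 ± 0.13 in control tumours (SD, n = 3 each), an SD 9.44 times as large in the transgenic group. The difference of -0.09 ± 0.58 (SE) did not pass (limma adjusted p 0.976). Leaving out transgenic array 2 turned it to 0.49, and leaving out array 1 gave -0.72.

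Cldn3 and Cldn4 are neighbours on chromosome 5, with 0 protein-coding genes between them in the RefSeq annotation of GRCm38.p6. Both were highest in transgenic tumour 1, but in transgenic tumour 2 Cldn4 lay 1.27 under its control mean, while the Cldn3 probe sets lay 0.04 to 0.31 above theirs. The 250 bases before the start of each gene are shown with those of Cldn2. These genes were chosen because each was highest in transgenic tumour 1. So were Cldn23, Ocln and Tjp1 at their brightest probe sets, and their bases are not shown. The sequences are printed 5′ to 3′ on the strand of the gene. Capitals mark those matches of the motifs described after them that lie wholly within the bases shown.
Cldn2 (chrX:139800558-139800807, + strand): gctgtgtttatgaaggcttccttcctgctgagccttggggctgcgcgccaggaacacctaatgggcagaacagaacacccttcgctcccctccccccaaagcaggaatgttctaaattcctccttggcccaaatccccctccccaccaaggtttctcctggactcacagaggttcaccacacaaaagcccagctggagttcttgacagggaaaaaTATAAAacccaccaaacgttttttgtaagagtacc
Cldn3 (chr5:134985964-134986213, + strand): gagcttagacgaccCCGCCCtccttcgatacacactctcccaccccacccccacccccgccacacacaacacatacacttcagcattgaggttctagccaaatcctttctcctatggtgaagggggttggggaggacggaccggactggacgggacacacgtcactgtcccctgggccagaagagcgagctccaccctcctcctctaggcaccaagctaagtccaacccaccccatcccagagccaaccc
Cldn4 (chr5:134946935-134947184, - strand): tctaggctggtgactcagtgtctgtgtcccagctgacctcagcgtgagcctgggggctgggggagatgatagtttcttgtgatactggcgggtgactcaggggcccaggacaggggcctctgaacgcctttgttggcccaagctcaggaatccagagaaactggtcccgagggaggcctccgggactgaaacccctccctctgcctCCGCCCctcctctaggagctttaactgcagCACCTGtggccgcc

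Motifs were searched on both strands in RefSeq promoter windows of 300 bases (250 before and 50 after a start, GRCm38.p6), which held 8 of the 10 genes in 10 windows. The E-box CAGGTG, which the repressors Snail and Zeb bind, lay 14 bases before the Cldn4 start, and another match ended after that start. In the Cldn3 window the only E-box match ended after the start. The E-box was absent from the Cldn2 window, and 20.2% of all 32851 windows hold it. Among genes not shown, it also lay in both Ocln windows and in a window of Cldn7, which was close to level. It was absent from the windows of Cldn1, Cldn15 and Tjp1. The GC box GGGCGG lay 236 bases before the start of Cldn3 and 44 before that of Cldn4, where another match ended after the start. It is held by 35.7% of windows. Cldn2 had the TATA box TATAAA 35 bases before its start, a match found in 13.6% of windows. The Grainyhead motif AACCNGTT had 0 matches in the windows of these genes and occurs in 2.09% of all windows. No 2 of these matches overlapped in the sequences shown. They describe letters in these windows and are not shown to be bound.

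Cldn8 varied more than any other gene of the set. It is a sealing claudin of the distal colon, where it blocks the back-leak of sodium taken up through the epithelial sodium channel. It was at 4.43, 9.66 and 7.75 in transgenic tumours and at 6.56, 5.47 and 4.71 in control tumours. Transgenic tumours 2 and 3 lay above every control tumour and transgenic tumour 1 lay below them all. The highest array was 37.4-fold above the lowest, and 99.3% of the tested probe sets had a smaller range.

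Cldn8 levels were 7.28 ± 2.64 in transgenic and 5.58 ± 0.93 in control tumours (SD, n = 3 each). The difference of 1.70 ± 1.30 (SE), or 3.25-fold, had an interval of -1.44 to 4.84 and a limma adjusted p of 0.81. Leaving out transgenic array 1 gave 3.12 and leaving out array 2 gave 0.51, and neither passed. Beside these values, the smooth muscle markers (6 of 7 genes kept) had means of 6.40, 10.43 and 9.33 on transgenic arrays 1, 2 and 3 and 6.84 to 7.84 on control arrays. Desmin (Des), the seventh, was at 3.03, 8.41 and 7.04 on transgenic arrays and at 3.06 to 3.85 on control arrays. The squamous genes Krtdap and Trp63 were high in transgenic tumour 2 alone, and the goblet cell and colonocyte means were lowest in tumour 1. The part of these tissues in the Cldn8 result was not tested.

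**Figure D2:**
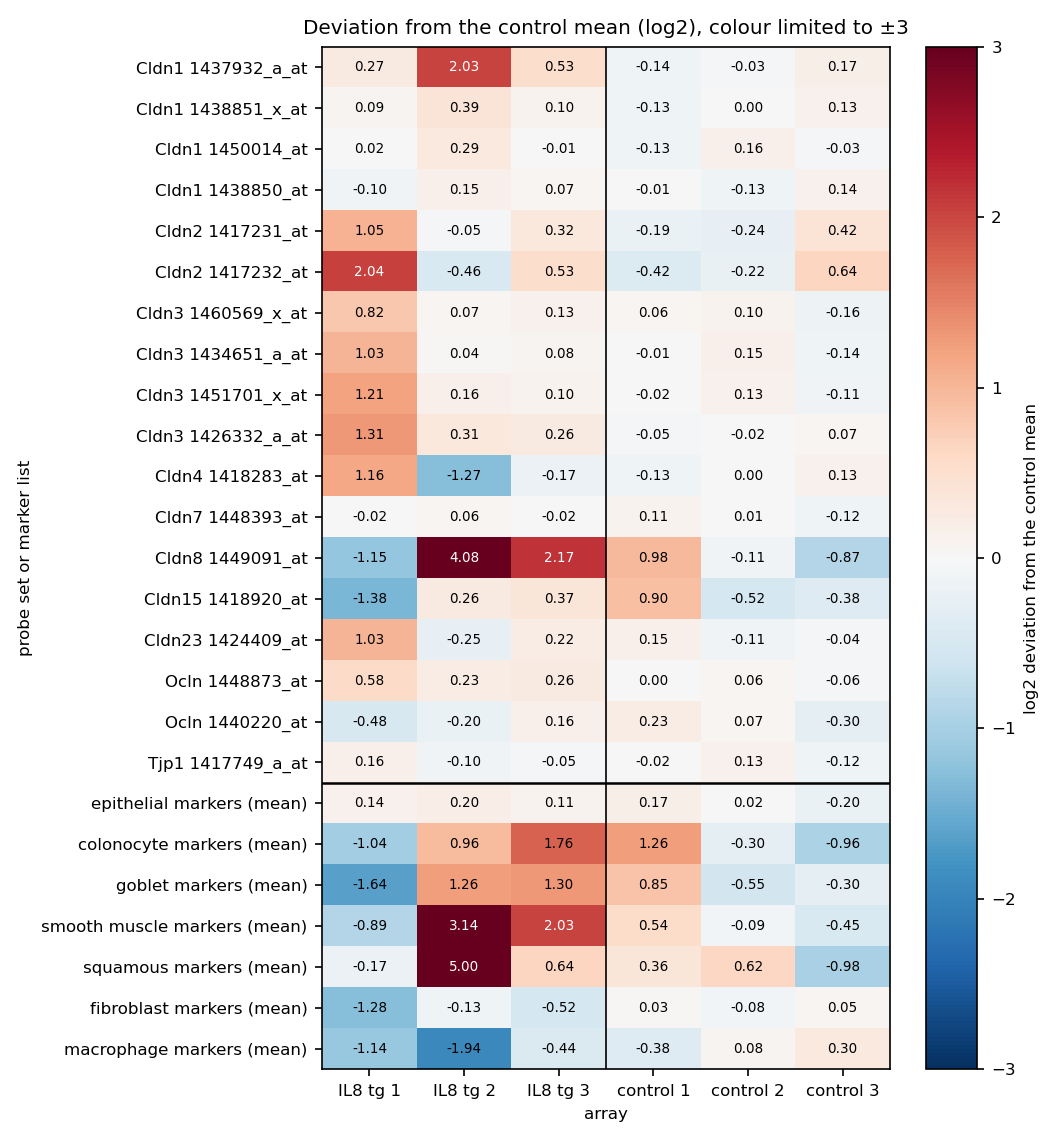
Deviation of each array (columns, IL8 transgenic on the left) from the control mean on the log2 scale, for the 18 tight junction probe sets and, under the line, the mean over the kept genes of 7 marker lists. Red is above and blue below the control mean, with the value printed in each cell. Cldn2, Cldn3, Cldn4 and Cldn23 are red in transgenic tumour 1, where Cldn8 and Cldn15 are blue. The goblet cell, colonocyte, smooth muscle, fibroblast and macrophage means are blue there too, and the squamous mean slightly so.

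Cldn7 was close to level in all tumours. It is an abundant claudin of the lateral membrane that binds the adhesion protein EpCAM. It was at 13.10, 13.18 and 13.09 in transgenic tumours and at 13.23, 13.13 and 13.00 in control tumours. All 6 values lay within 0.23, and 3.8% of tested probe sets had a smaller range. It is also very bright, with 1.22% of tested probe sets above it, and signals near the top of an array's scale can be compressed. The difference was 0.01 ± 0.14 (SE), with an interval of -0.33 to 0.35 and a limma adjusted p of 0.989. Epcam, its partner, was at 13.87 to 13.95 on transgenic and 13.82 to 13.93 on control arrays.

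Cldn1, the sealing claudin of skin and of many other barriers, lay near background, and none of its 4 probe sets passed the filter. The brightest was at 2.43, 4.20 and 2.69 in transgenic tumours and at 2.03, 2.13 and 2.34 in control tumours. The 1 value above 4 was that of transgenic tumour 2, the tumour with the squamous genes, and no fold is given because the rest were under the filter level. The other 3 probe sets lay between 1.26 and 2.28 on all 6 arrays. Whether the squamous tissue carried the Cldn1 signal was not tested.

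Cldn23, a less studied claudin of the differentiated colon surface, shared the high value in transgenic tumour 1 with Cldn3. It was at 10.39, 9.12 and 9.58 in transgenic tumours and at 9.51, 9.26 and 9.32 in control tumours. Transgenic tumour 1 was the highest and transgenic tumour 2 the lowest. In tumour 2 Cldn23 lay at -0.25 from its control mean, while the Cldn3 probe sets lay 0.04 to 0.31 above theirs. The difference of 0.33 ± 0.33 (SE), with an interval of -0.46 to 1.13, did not pass (limma adjusted p 0.835), and it was -0.02 without transgenic array 1.

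Ocln encodes occludin, the first membrane protein found in tight junction strands, and its probe sets disagreed. The brighter was at 10.37, 10.02 and 10.05 in transgenic tumours and at 9.79, 9.85 and 9.73 in control tumours, and the groups did not overlap. The difference of 0.36 ± 0.16 (SE), or 1.28-fold, had an interval of -0.03 to 0.74. It did not pass (limma adjusted p 0.806), while an exact two-sided permutation test gave p = 0.1, the smallest this design allows. It stayed between 0.25 and 0.42 with each array left out in turn, and was 0.21 with overlapping groups when the arrays were centred on their epithelial markers. The dimmer Ocln probe set was at 8.48, 8.75 and 9.11 in transgenic and 9.18, 9.03 and 8.65 in control tumours. There transgenic tumour 1 was the lowest, and the difference was -0.17 ± 0.23 (SE; limma adjusted p 0.877). The sources used here do not say which part of the transcript each probe set reads.

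Tjp1, the gene of the scaffold protein ZO-1 that binds claudin tails, was as level as Cldn7. It was at 10.91, 10.66 and 10.71 in transgenic tumours and at 10.74, 10.89 and 10.64 in control tumours. The values of the groups were mixed within 0.27. The difference was 0.00 ± 0.15 (SE), with an interval of -0.37 to 0.37 and a limma adjusted p of 0.999. The bounds of that interval stand for 1.30-fold higher and 1.29-fold lower Tjp1 mRNA.

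**Figure D3:**
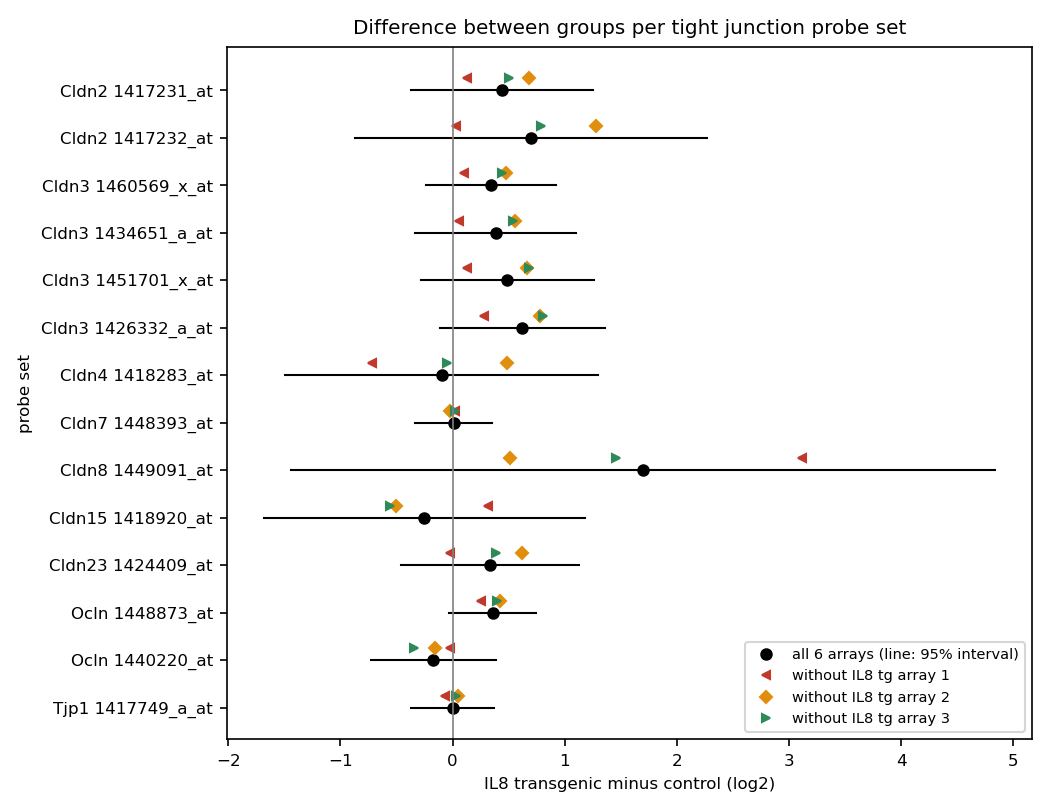
Difference between IL8 transgenic and control tumours (x axis, log2) for the 14 tested probe sets (y axis). Black points and lines are the estimate from all 6 arrays and its 95% interval, and coloured marks the estimate without transgenic array 1, 2 or 3. Every interval includes 0, and for each Cldn2 and Cldn3 probe set the mark without transgenic array 1 lies nearer to 0 than the other marks.

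Across the set, 10 of 14 probe sets had a difference above 0 after rounding to 2 decimals, against 46% of all probe sets. At the brightest probe set of each gene this was so for 6 of 9 genes, with Tjp1 at 0.00 and Cldn7 at 0.01, and the Cldn7 difference turned negative with epithelial centring or quantile normalization. Groups did not overlap for 2 of 14 probe sets (1 of Cldn3 and 1 of Ocln), and 10.9% of all tested probe sets had groups apart. Both had the transgenic values above, which 4.61% of all probe sets had. The remaining Cldn3 and Ocln probe sets had overlapping groups. At the brightest probe set of each gene the groups were apart for 1 of 9 genes, near the 11.5% of all genes. The SD was larger in the transgenic group for 13 of 14 probe sets, with Cldn7 the exception, against 69.7% of all probe sets. Transgenic tumour 1 held the highest value at the brightest probe set of 6 of the 9 genes (Cldn2, Cldn3, Cldn4, Cldn23, Ocln and Tjp1), a place it held for 23.2% of all genes. It held the lowest value for Cldn8 and Cldn15, as for 26.9% of all genes. In transgenic tumour 1 the 3′ control probe set of Gapdh exceeded the 5′ one by 0.71, and in the others by 0.87 to 0.96. The part of RNA quality in these values was not tested.

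Some genes of the set had like profiles, measured as the root mean square (RMS) difference between log2 profiles over the 6 arrays after each was centred on its own mean. The 4 Cldn3 probe sets differed from each other by 0.07 to 0.21, from the brighter Ocln probe set by 0.14 to 0.28 and from Cldn23 by 0.18 to 0.23. Cldn7 and Tjp1 differed by 0.12, where both profiles are almost flat. For Cldn8, Cldn4 and Cldn15, the genes with the widest ranges at their brightest probe sets (the dimmer Cldn2 probe set ranged over 2.51, against 2.43 for Cldn4), the nearest other genes were looked up among all 10289. Nearest to Cldn8 were Sult1c2, a sulfotransferase gene, at 0.26, Cyp2c68, a cytochrome P450 gene, at 0.32, and Synm, a muscle intermediate filament gene, at 0.37. Nearest to Cldn4 were Tmem131l at 0.10, Arid5a at 0.13 and Il7r, the interleukin 7 receptor gene, at 0.14. Nearest to Cldn15 were Tmem238l at 0.18, Armcx3 at 0.24 and Fam3b at 0.25. Such neighbours are picked from many genes over 6 arrays and describe these arrays only.

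**Figure D4:**
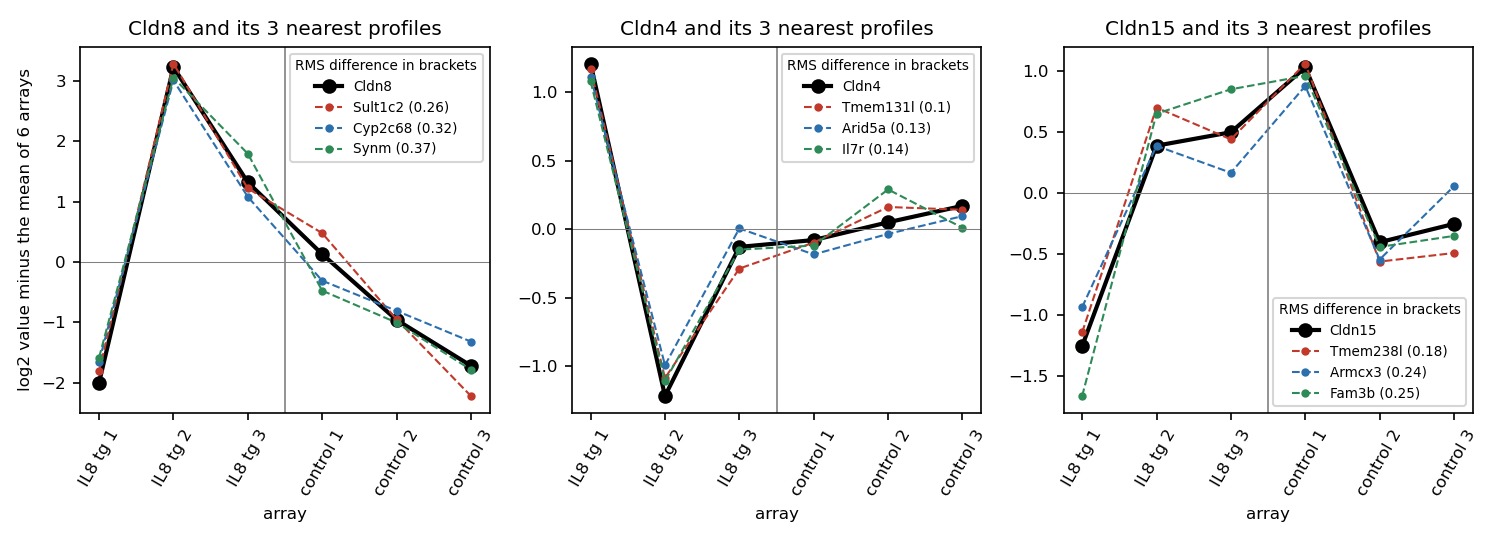
Log2 value of each array minus the mean of 6 arrays (y axis), with IL8 transgenic arrays on the left and control arrays on the right of each panel. The thick black line is Cldn8, Cldn4 or Cldn15, and the dashed lines are the 3 nearest genes with their RMS difference. Cldn8 is low and Cldn4 high in transgenic tumour 1, with the order turned in transgenic tumour 2.

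No gene of the other junction lists passed at any kept probe set. At the brightest probe set of each gene, which the counts per list use, 1, Prss8, had an unadjusted p under 0.05, against 5.82% of all genes, and dimmer probe sets of Arhgef2 (difference -0.51) and Cxadr (-0.52) did as well. Of 16 further claudins listed, 12 had a probe set and 1, Cldn12, was kept. Cldn12, a cation-permeable claudin, was at 10.16, 10.31 and 10.09 in transgenic and 10.16, 9.81 and 10.08 in control tumours, and its difference of 0.17 did not pass (limma adjusted p 0.83). Cldn5, the endothelial claudin, was under 4 on every array, at 2.72 to 3.99 in transgenic and 2.71 to 3.78 in control tumours. Of 12 other tight junction membrane genes, 9 were kept, 3 with a positive and 6 with a negative difference, and 0 passed (median -0.12). The smallest unadjusted p among them were those of Esam, Cxadr and Marveld3, each with a difference of -0.36 and a limma adjusted p of 0.806. Dimmer probe sets went the other way for Marveld3 (0.09) and for Cxadr (0.1, beside the one at -0.52).

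The list of plaque genes, which encode the scaffold, polarity and signalling proteins under the strands, held 24 symbols. Mpp5 and Pals1 among them name the same gene, listed on the platform as Mpp5. Of the 24 symbols 21 were kept, 10 with a positive and 10 with a negative difference and Pard3 at 0.00. Among these, 0 passed (median 0.00). Cgn, the gene of the plaque protein cingulin, was at 8.65, 8.56 and 8.47 in transgenic and 8.44, 8.34 and 8.24 in control tumours. Its groups did not overlap, as for 11.5% of all genes, and its difference of 0.22 ± 0.14 (SE) did not pass (limma adjusted p 0.806). A dimmer Cgn probe set had overlapping groups and a difference of -0.03. Amotl1 differed by -0.59 and Magi1 by 0.53, both at a limma adjusted p of 0.806. The ZO-3 gene Tjp3 differed by 0.02 ± 0.15 (SE).

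Adherens junction genes, whose cadherin belt lies just below the tight junction, gave 7 positive and 2 negative differences among 9 kept of 10, and 0 passed (median 0.21). Nectin3 differed by 0.38, Cdh1, the E-cadherin gene, by 0.24 and Vcl, the vinculin gene, by 0.23. Of 10 genes that modify junctions, 8 were kept and 0 passed, 5 with a positive and 3 with a negative difference. Prss8, the gene of the membrane protease prostasin, was at 5.55, 5.90 and 5.42 in transgenic tumours and at 5.21, 4.82 and 4.95 in control tumours. All transgenic values lay above all control values. The difference of 0.63 ± 0.19 (SE) had the smallest unadjusted p of this list and did not pass (limma adjusted p 0.806). St14, the gene of the protease matriptase that acts with prostasin, lay lower, with a difference of -0.31 ± 0.16 (SE; limma adjusted p 0.806) and groups apart.

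Of 12 transcription factors known to act on epithelial junction genes, 9 were kept, 5 with a positive and 4 with a negative difference, and 0 passed. The smallest unadjusted p were those of Cdx1, the intestinal homeobox gene (difference 0.92), Grhl1, a grainyhead-like gene (0.82), and Zeb1, a repressor of E-cadherin (-0.32), each at a limma adjusted p of 0.806. Snai1 and Twist1 were under 4 on every array.

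The marker lists of other cells are given once. No kept gene passed in the epithelial (median 0.15), colonocyte (0.48), goblet cell (0.27), squamous (2.02, 4 of 11 kept), smooth muscle (1.22), fibroblast (-0.59), endothelial (-0.19), macrophage (-1.14), neutrophil (0.78, 3 of 6 kept) and T cell (-0.40, 1 of 8 kept) lists. At the brightest probe set of each gene the unadjusted p was under 0.05 for 6 of 8 macrophage, 2 of 3 neutrophil, 1 of 4 squamous and 1 of 8 fibroblast genes, against 5.82% of all genes. Over any kept probe set of a gene it was so for 7 macrophage, 3 neutrophil, 1 squamous and 2 fibroblast genes, against 7.8% of all genes. Of 3 kept B and plasma cell genes, Ighm, the immunoglobulin M heavy chain gene, passed at 1 of 7 probe sets, its brightest, and was higher there in transgenic tumours. The other 6 had differences above 0 that did not pass (limma adjusted p 0.806 to 0.841). All 4 kept genes of the sex chromosome list passed, Xist higher and the Y-linked Eif2s3y, Kdm5d and Uty lower. Enteric glia had 0 of 5 genes kept. At these brightest probe sets all 8 fibroblast and all 8 macrophage genes had negative differences, and all 6 kept smooth muscle genes positive ones. The kept neutrophil genes were split, with S100a8 (0.78) and S100a9 (1.02) higher and Mmp9 (-1.95) lower in transgenic tumours. The part of these cells in the claudin values was not tested.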

How the data were processed

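Each of the 6 arrays measured 1 colon tumour RNA sample. The deposited values are log2 expression values per probe set made by the authors with GCRMA, a background correction and summary of probe intensities, per the submitters' processing notes. The sources used here give neither its version nor a genome build. They were used as deposited. Array medians were 3.31 to 3.36, and 41.8% to 43.0% of probe sets reached 4. With arrays, their number limits the precision.

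Gene symbols came from the platform annotation; of 45101 probe sets 34958 had 1 symbol, 932 several and 9211 none listed. RefSeq (GRCm38.p6) changed 0 symbols and gave chromosomes and promoters. Samples were grouped by title, because all source labels hold the word control. Leaving aside 64 AFFX controls, probe sets at 4 or more on 3 or more arrays were tested. The difference of transgenic minus control was fitted in R 4.3.3 with limma 3.58.1, using lmFit, eBayes and Benjamini-Hochberg adjustment over every tested probe set. The procedure was also run on simulated data with the control SD in both groups, which leaves the wider transgenic spread untested.

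All probe sets of the 10 genes are reported. From other lists, genes that passed and up to 3 with the smallest unadjusted p are named, and for the 3 genes with the largest range the 3 nearest by RMS difference. Cldn5, Snai1, Snai2, Twist1, Tjp3, Pard3, Arhgef2, Mylk and Epcam fall outside that rule or were chosen after values were seen. The same holds for the dimmer Cxadr, Cgn, Marveld3 and Zeb1 probe sets and the other marker genes given with values. The genes, lists and alternatives were chosen with earlier results of these data known.

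Replicate numbers are shared by the groups in the titles, but same-numbered arrays did not deviate together from their group means (correlations of -0.267, -0.277 and -0.051 across probe sets), so the main comparison has no block.

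The alternatives were no filter, a filter at 6, quantile normalization, median centring, values under 4 set to 4, a trended and robust prior variance, array weights, the replicate number as a block, centring on epithelial markers, averaging probe sets, and leaving out each array.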

Additional observations from a re-analysis of the deposited data

How the results depend on the processing

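No tight junction probe set passed in any alternative run. Of 208 alternative values for the 14 probe sets, 192 kept their direction, read before rounding, and 16 turned. Tjp1 was at 0.00 with quantile normalization (below zero before rounding), -0.08 with array weights and -0.15 with epithelial centring, and between -0.07 and 0.07 with each array left out. Cldn7 was at -0.03, -0.02 and -0.14 in the same settings, and between -0.05 and 0.06. Cldn15 was at 0.18 with array weights and between -0.56 and 0.32 with an array left out, Cldn4 between -0.72 and 0.49, and Cldn23 between -0.02 and 0.62. The causes were not tested. The median over the 9 genes ran from 0.10 to 0.48 with 1 array left out, and was 0.09 with the probe sets of a gene averaged. With the replicate number as a block it stayed at 0.33, 0 of 14 probe sets passed, and 8 probe sets passed in all, against 11 without it. Over the alternatives, 8 to 12 of all probe sets passed. With 3 arrays per group, the 95% intervals were 0.68 wide for Cldn7 and 6.27 wide for Cldn8, which limits what could be seen.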

Other observations

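Snai2, the gene of the repressor Slug, was at 4.32 in transgenic tumour 1 and at 9.25 and 8.76 in the other transgenic tumours, against 9.03, 8.97 and 8.58 in control tumours. Transgenic tumour 1 was thus far below the other 5 at the 1 kept Snai2 probe set. The fibroblast marker mean was lowest in that tumour as well, at 9.39 against 10.15 to 10.72 on the other arrays. Of 8 fibroblast genes, 4 had their lowest value there, against 26.9% of all genes. The part of fibroblasts in the Snai2 value was not tested. The Snai2 difference of -1.42 ± 1.26 (SE) did not pass (limma adjusted p 0.825). Mylk, the gene of the myosin light chain kinase that tightens the junction-associated actin ring and is also abundant in smooth muscle, was lowest in the same tumour at both of its kept probe sets, at 8.45 and 8.18, against 9.33 to 10.53 on the other arrays.

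In transgenic tumour 2, with the squamous genes, some junction genes under the filter had their highest value. Cldn14 was at 4.73 there and at 2.97 to 3.68 elsewhere, and Jam2 at 4.67 there and at 3.09 to 3.82 elsewhere. Others under the filter, such as Cldn5, Cldn6 and Jam3, had their highest value elsewhere. Transgenic array 2 held the highest value for 25.5% of all kept genes. The genes named here were not kept, and no such share is given for genes under the filter. These values were seen in the data and not tested.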
